A study of Mus musculus with 32 samples.

Results

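The members described here are 10 genes of ubiquitin ligases that have been tied to skeletal muscle atrophy: Fbxo32, Fbxo31, Fbxo30, Fbxo21, Fbxo40, Trim63, Cblb, Traf6, Trim32 and Nedd4. They were taken by gene symbol from the deposited table, and all 10 were found among the 48586 genes that carry values there. The members were chosen with earlier results of these data known. The libraries were made from total RNA of 3 hindlimb muscles (gastrocnemius, quadriceps, tibialis) in mice of 3 states. Sick knock-in mice carry the GNE M743T/M743T knock in and show the sick phenotype (9 libraries, 3 of each muscle). Healthy knock-in mice carry the same homozygous allele and show the healthy phenotype (11 libraries, 3 of gastrocnemius and 4 each of quadriceps and tibialis). Wild-type mice are the reference (12 libraries, 4 of each muscle). The mice were males of at most 3 months, with 4 mice in each state. Gne encodes the key enzyme of sialic acid synthesis, and the allele changes the sequence of the protein, so the Gne count does not check the genotype. The 2 knock-in states share 1 genotype, and how sick was told from healthy is not given in the sources used here. With 4 mice in each state, libraries of different muscles must share mice. Nothing in the labels says which libraries of different muscles came from the same mouse, and p-values therefore measure the spread between these libraries.

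Ubiquitin ligases choose the proteins that are tagged with ubiquitin, most often for breakdown by the proteasome. F-box proteins are the substrate receptors of SCF ligases, which are built on Skp1, Cul1 and a RING protein; RING ligases bring substrate and ubiquitin-loaded E2 enzyme together; HECT ligases carry ubiquitin themselves before passing it on. In skeletal muscle, Fbxo32 (atrogin-1) and Trim63 (MuRF1) are the standard markers of wasting after fasting, denervation, disuse and disease, and FoxO transcription factors and glucocorticoids are known to switch them on.

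Total counts per library ran from 7685164 to 42588233, and Gne ran from 7.35 to 14.3 CPM (a count scaled to library size). Skeletal muscle markers were detected in every group. Their summed level was lowest in sick knock-in library 2 of each muscle among the sick libraries, at 127173 CPM in gastrocnemius, 153193 CPM in quadriceps and 156849 CPM in tibialis, where the other sick libraries held 198449 to 253608 CPM. Kidney tubule markers, which muscle should lack, summed to 65.1 to 87.7 CPM in the 4 wild-type tibialis libraries and to 25.4 CPM in healthy knock-in gastrocnemius library 2, and to at most 2.56 CPM in the rest. Healthy knock-in quadriceps library 4 held 3305 CPM of adipocyte markers, where no other library passed 898 CPM.

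Upstream sequence is shown for 3 members that illustrate the range of responses described below. Trim63 and Fbxo31 were higher in sick knock-in muscle than in wild-type muscle in all 3 muscles, and Fbxo40 was lower in quadriceps. The 250 bases before the annotated start site were taken from RefSeq (GRCm38.p6), in which 9 of the 10 members, all but Fbxo32, had 11 windows in all. They are printed 5′ to 3′ on the strand of the gene, in lower case. Capitals mark exact matches, on either strand, to a FoxO motif (TGTTTAC), a 6-base part of a glucocorticoid receptor site (TGTTCT) and a myogenic E-box (CAGCTG).
Trim63, chr4:134314870-134315119, plus strand: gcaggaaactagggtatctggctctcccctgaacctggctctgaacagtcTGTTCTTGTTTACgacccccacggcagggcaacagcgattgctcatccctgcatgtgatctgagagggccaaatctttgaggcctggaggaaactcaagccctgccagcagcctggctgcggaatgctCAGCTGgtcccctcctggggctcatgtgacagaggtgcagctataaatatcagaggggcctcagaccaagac
Fbxo31, chr8:121578807-121579056, minus strand: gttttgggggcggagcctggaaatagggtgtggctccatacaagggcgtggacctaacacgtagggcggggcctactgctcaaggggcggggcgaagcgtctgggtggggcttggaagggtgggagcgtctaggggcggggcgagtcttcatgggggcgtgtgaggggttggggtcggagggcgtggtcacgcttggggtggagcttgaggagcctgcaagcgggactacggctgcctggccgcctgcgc
Fbxo40, first start site, chr16:36990468-36990717, minus strand: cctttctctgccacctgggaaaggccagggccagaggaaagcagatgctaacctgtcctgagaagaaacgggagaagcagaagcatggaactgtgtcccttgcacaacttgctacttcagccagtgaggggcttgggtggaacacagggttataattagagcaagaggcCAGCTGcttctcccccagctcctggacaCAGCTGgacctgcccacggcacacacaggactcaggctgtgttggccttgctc
The Trim63 window held all 3 motifs. Its TGTTCT, 200 bases before the start, directly abuts TGTTTAC, 194 bases before the start, so the capitals run on without a break, and CAGCTG lies 72 bases before it. The Fbxo31 window held none of them. The Fbxo40 window shown held CAGCTG at 81 and 53 bases before the start. The window of the second Fbxo40 start site, not shown, held TGTTCT on the opposite strand at 176 bases and CAGCTG at 89 bases. The window of the second Nedd4 start site also held TGTTCT and CAGCTG, and the Trim32 window held CAGCTG. Trim63 was the only member with TGTTTAC among the 11 windows, and 3.17% of 32851 mouse promoter windows of the same length held that motif, against 16.1% for TGTTCT and 13% for CAGCTG. A match describes letters in a window and not binding.

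In wild-type muscle the members fell into an abundant and a scarce set when their counts were divided by exon length. Trim63 averaged 73.0 ± 38.7 CPM per kb of exon, Fbxo40 70.5 ± 11.2, Fbxo32 46.8 ± 32.7, Nedd4 45.2 ± 8.8 and Fbxo31 25.0 ± 3.9 CPM per kb (SD, n = 12 libraries). These libraries came from 3 muscles of 4 mice and are not independent animals. The ranges of neighbours in this order overlapped. Trim32 at 3.63, Fbxo30 at 3.61, Fbxo21 at 2.51, Traf6 at 2.40 and Cblb at 1.78 CPM per kb made up the scarce set, again with overlapping neighbours. Between the sets there was a gap: the lowest Fbxo31 library held 20.5 and the highest Trim32 library 4.34 CPM per kb.

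**Figure D1:**
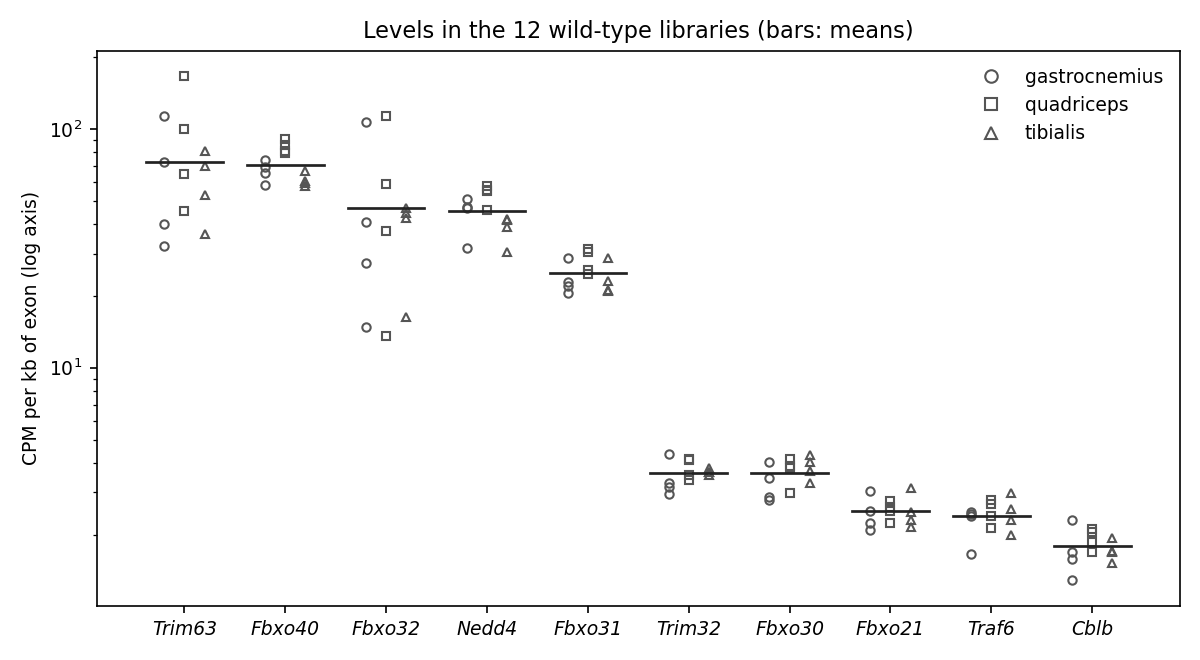
Level of each member in the 12 wild-type libraries, in CPM per kb of exon on a log axis, with a symbol per muscle and a bar at the mean. Trim63 and Fbxo32 spread most, from 32.4 to 166 and from 13.6 to 113 CPM per kb, and a gap separates Fbxo31 from Trim32.

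The 2 classical markers were also the least even members between wild-type libraries of a muscle. The SD of log2 CPM within wild-type groups was 1.10 for Fbxo32 and 0.73 for Trim63, against a median of 0.30 over 13562 genes, and 97.7% and 92.6% of those genes had a lower SD. Fbxo40, a muscle-restricted F-box gene whose product is known to act on the insulin receptor substrate IRS1, was the most even member at 0.11, with 3.24% of genes below it. Fbxo32 was lowest in library 2 of the wild-type group in each muscle, at 103 CPM in gastrocnemius, 94.7 CPM in quadriceps and 114 CPM in tibialis. It was also lowest in library 2 of each healthy knock-in group, at 94.6, 82.2 and 142 CPM in the same order of muscles, and highest in library 2 of each sick group.

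Between muscles of wild-type mice 1 member was called. The fit took the muscles' libraries as independent, although the 12 libraries came from 4 mice. Fbxo40 was lower in tibialis, at 337 ± 22.3 CPM, than in quadriceps, at 463 ± 28.6 CPM (SD, n = 4 each), a log2 fold change of -0.44 ± 0.11 (SE; adjusted p = 0.0416 by limma, as throughout). It was the 1 member of 10 called between those muscles, where 5.67% of 14708 genes were called and 2.09% were called lower, and the call was lost without any of 8 of the 12 libraries. Nedd4 differed between the same muscles by -0.47 ± 0.17 and did not pass (adjusted p = 0.119). No member was called between quadriceps and gastrocnemius or between tibialis and gastrocnemius, where 1.07% and 2.58% of genes were, and 1 and 0 members had an unadjusted p below 0.05.

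Sick knock-in muscle held more RNA of 4 members, Fbxo32, Trim63, Fbxo31 and Cblb, in most tests. Against wild type, those 4 and no other member were called higher in gastrocnemius, where 8.22% of 14155 genes were called higher and 6.52% lower. In quadriceps Trim63, Fbxo31 and Cblb were called higher, where 10.5% of 13799 genes were, and Fbxo40 and Trim32 lower, where 7.49% of genes were. In tibialis all 4 and Nedd4 were called higher, where 8.44% of 14520 genes were, and no member lower, where 9.61% of genes were. The median log2 fold change over the 10 members was 0.68, 0.69 and 0.63 in gastrocnemius, quadriceps and tibialis, beside -0.03, 0.00 and -0.05 over all genes tested. All sick libraries lay above all wild-type libraries for 4, 4 and 5 members, where 13.3%, 15.7% and 14.7% of genes did so, and below them for 1, 2 and 2 members, where 13.9%, 14.4% and 16.1% of genes did so. In bulk muscle RNA, fewer cells of a type and less RNA per cell cannot be told apart.

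**Figure D2:**
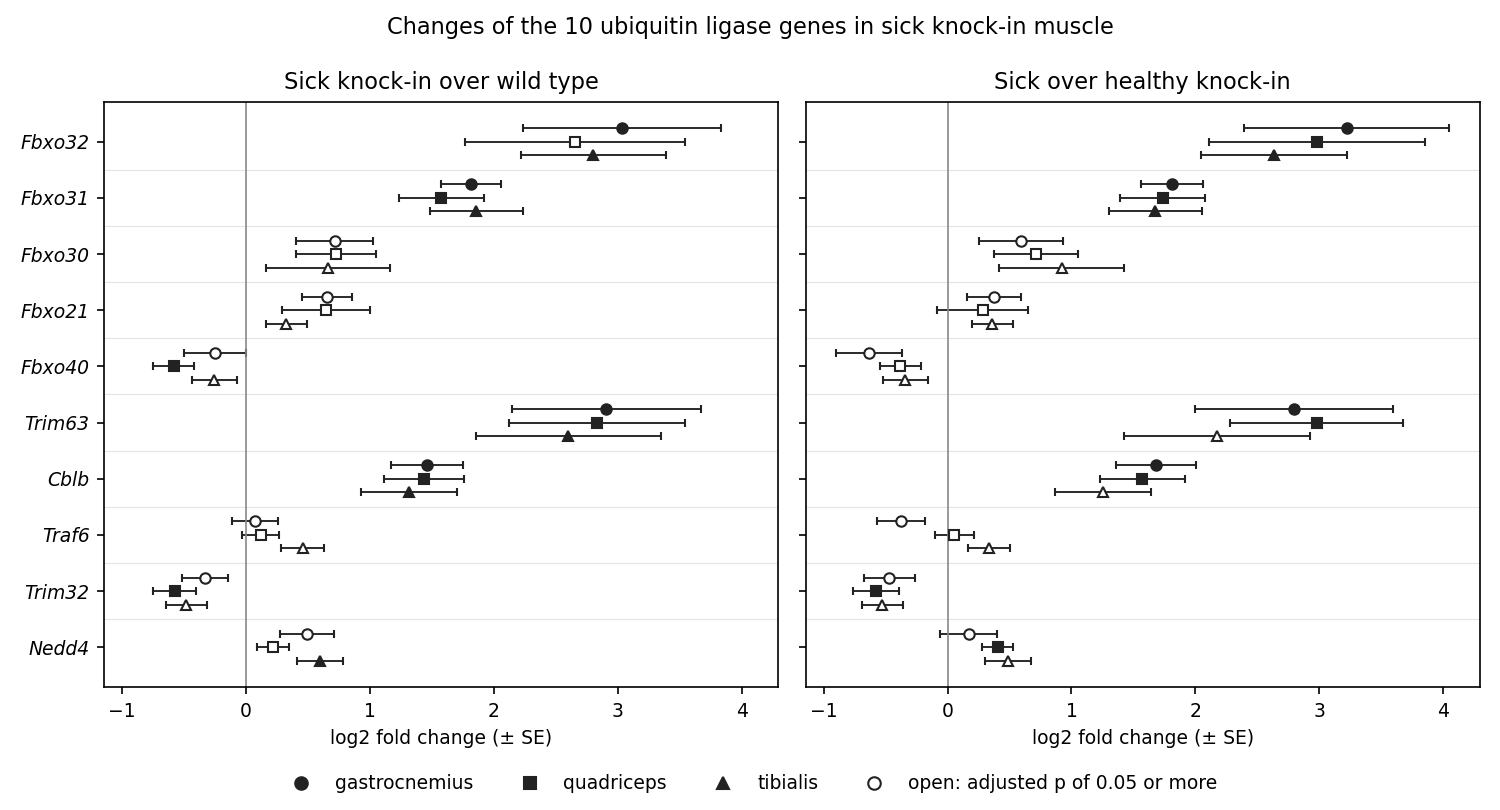
Log2 fold change ± SE of each member in each muscle, sick knock-in over wild type on the left and sick over healthy knock-in on the right, with filled symbols for an adjusted p below 0.05. Fbxo32, Trim63, Fbxo31 and Cblb lie between 1.26 and 3.22 in both panels, and all other members lie closer to 0 than these. Trim32 lies below 0 in every muscle, and so does Fbxo40 against wild type.

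Fbxo32, the substrate receptor atrogin-1, lies at chr15:58175879-58214932 on the minus strand (GRCm38). In gastrocnemius it stood at 969, 3594 and 2823 CPM in sick libraries 1 to 3, at 493, 94.6 and 263 CPM in healthy knock-in libraries and at 190, 103, 284 and 746 CPM in wild-type libraries. The 3 sick libraries all lay above the rest. Fbxo32 rose by a log2 fold change of 3.04 ± 0.80 over wild type (SE; adjusted p = 0.0322), about 8.20-fold.

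In quadriceps Fbxo32 stood at 4198, 2971 and 567 CPM in sick libraries 2 to 4, at 507, 82.2, 302 and 280 CPM in healthy knock-in libraries and at 259, 94.7, 410 and 788 CPM in wild-type libraries. Sick library 4 fell inside the wild-type range, and the difference of 2.65 ± 0.89 did not pass (adjusted p = 0.0598). In tibialis it stood at 1018, 5078 and 917 CPM in sick libraries 1, 2 and 4, at 438, 142, 264 and 300 CPM in healthy knock-in libraries and at 325, 114, 308 and 295 CPM in wild-type libraries. There the sick libraries again lay above all others, and Fbxo32 rose by 2.80 ± 0.58 over wild type (adjusted p = 0.0121).

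**Figure D3:**
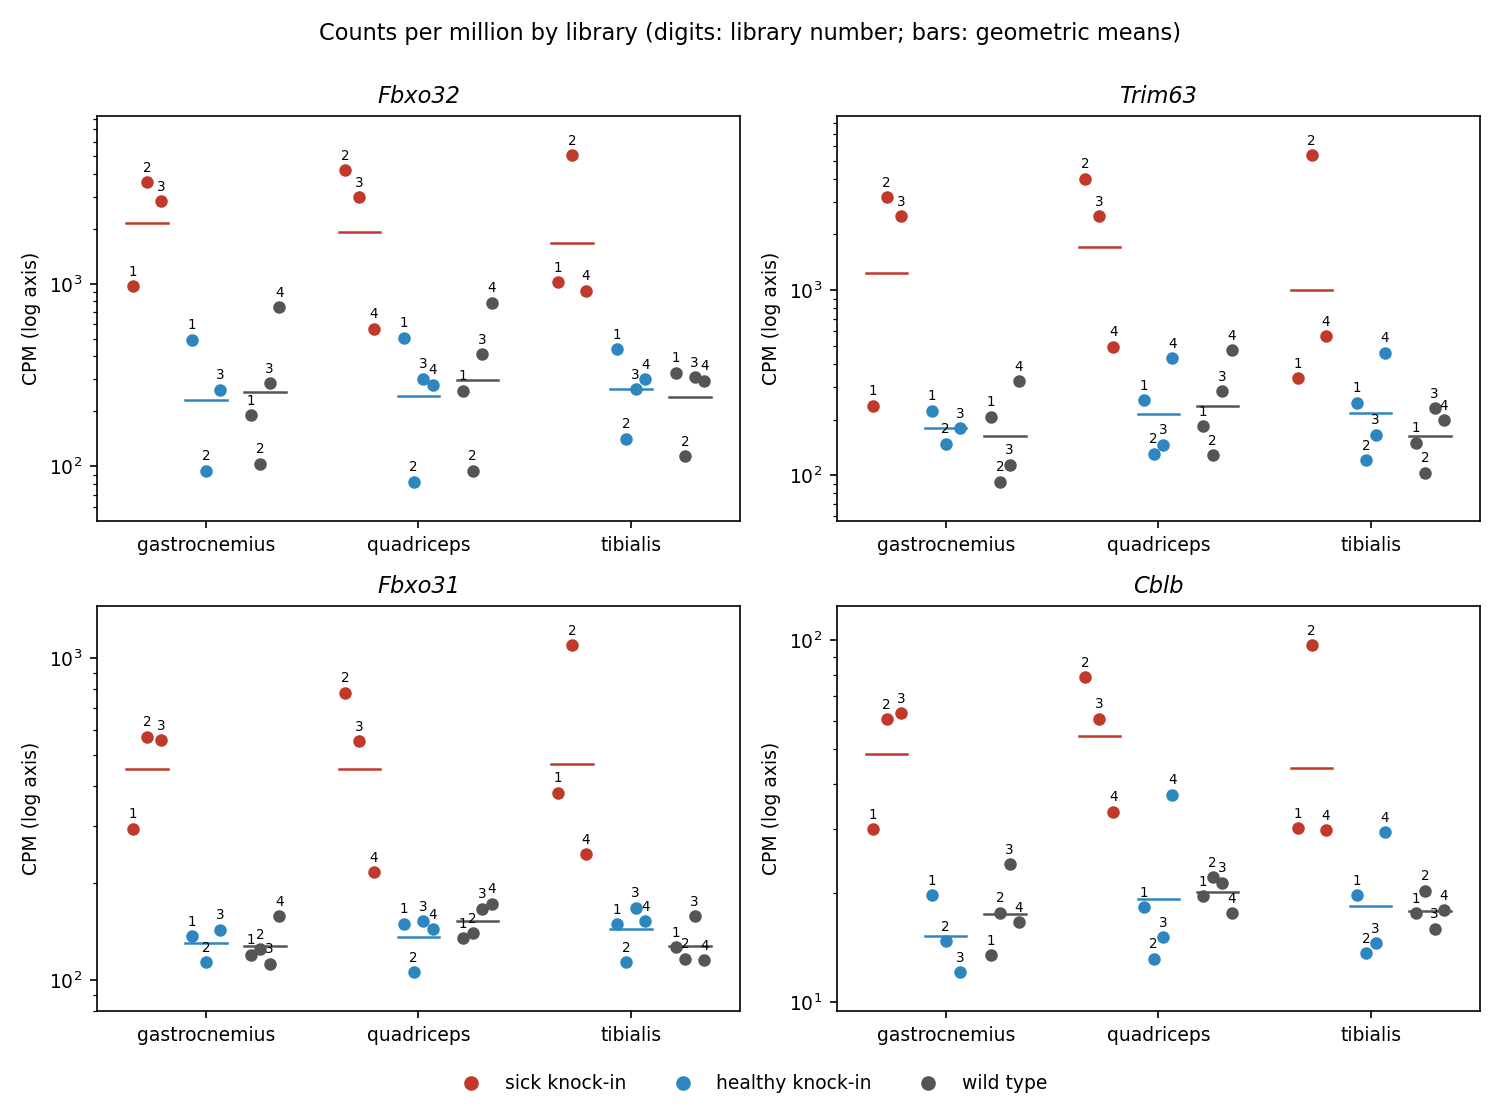
CPM of Fbxo32, Trim63, Fbxo31 and Cblb in each of the 32 libraries on a log axis, by muscle and state, with the library number beside each point and a bar at the geometric mean. Sick library 2 is the highest of its muscle in all panels except Cblb in gastrocnemius, where sick library 3 stands at 62.9 CPM and sick library 2 at 60.5 CPM.

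Trim63, the RING ligase MuRF1 of the sarcomere, lies at chr4:134315120-134329629 on the plus strand. In gastrocnemius it stood at 237, 3184 and 2517 CPM in sick libraries 1 to 3, at 223, 148 and 179 CPM in healthy knock-in libraries and at 207, 92.1, 114 and 323 CPM in wild-type libraries. Sick library 1 lay inside the wild-type range, although Fbxo32 in the same library did not. Trim63 rose by 2.91 ± 0.77 over wild type (adjusted p = 0.0319), and without sick library 1 the value was 4.08.

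In quadriceps Trim63 stood at 4010, 2514 and 496 CPM in sick libraries 2 to 4, at 254, 131, 146 and 428 CPM in healthy knock-in libraries and at 185, 128, 284 and 473 CPM in wild-type libraries. In tibialis it stood at 335, 5382 and 565 CPM in sick libraries 1, 2 and 4, at 246, 121, 166 and 459 CPM in healthy knock-in libraries and at 150, 103, 231 and 198 CPM in wild-type libraries. In both muscles every sick library exceeded every wild-type library, although quadriceps sick library 4 exceeded the highest wild-type library by little. Trim63 rose by 2.83 ± 0.71 in quadriceps (adjusted p = 0.0252) and by 2.60 ± 0.75 in tibialis (adjusted p = 0.034). The tibialis value rests most on 1 library: without sick library 2 it was 1.44 and did not pass (adjusted p = 0.0985).

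Fbxo31, an F-box receptor known for acting on cyclin D1, lies at chr8:121549440-121578806 on the minus strand and had a smaller log2 fold change than the 2 classical markers. In gastrocnemius it stood at 295, 570 and 555 CPM in sick libraries, at 137, 114 and 144 CPM in healthy knock-in libraries and at 120, 125, 112 and 158 CPM in wild-type libraries. In quadriceps it stood at 781, 552 and 216 CPM in sick libraries, at 150, 106, 152 and 144 CPM in healthy knock-in libraries and at 135, 140, 167 and 173 CPM in wild-type libraries. In tibialis it stood at 382, 1098 and 246 CPM in sick libraries, at 149, 114, 168 and 153 CPM in healthy knock-in libraries and at 126, 116, 158 and 115 CPM in wild-type libraries. All 9 sick libraries lay above every wild-type library of their muscle. Fbxo31 rose over wild type by 1.82 ± 0.24 in gastrocnemius, 1.58 ± 0.34 in quadriceps and 1.86 ± 0.37 in tibialis (adjusted p = 0.00272, 0.0164 and 0.0105). In gastrocnemius and tibialis these calls held under all 15 and 16 alternative fits. In quadriceps the call was lost under 4 of 16 alternative fits, among them those without sick library 2 or 3.

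Cblb, a RING ligase known to act on receptor signalling and, in unloaded muscle, on IRS1, lies at chr16:52031225-52208048 on the plus strand. In gastrocnemius it stood at 30.0, 60.5 and 62.9 CPM in sick libraries, at 19.8, 14.7 and 12.1 CPM in healthy knock-in libraries and at 13.5, 17.7, 24.0 and 16.6 CPM in wild-type libraries. In quadriceps it stood at 79.2, 60.7 and 33.6 CPM in sick libraries, at 18.3, 13.2, 15.1 and 37.5 CPM in healthy knock-in libraries and at 19.6, 22.1, 21.4 and 17.6 CPM in wild-type libraries. In tibialis it stood at 30.3, 97.0 and 29.8 CPM in sick libraries, at 19.7, 13.6, 14.5 and 29.4 CPM in healthy knock-in libraries and at 17.6, 20.3, 15.9 and 17.9 CPM in wild-type libraries. All 9 sick libraries lay above the wild-type libraries, while healthy knock-in quadriceps library 4, the library with 3305 CPM of adipocyte markers, reached into the sick range. Healthy knock-in tibialis library 4, at 29.4 CPM of Cblb, also lay above the wild-type libraries of its muscle, and held 468 CPM of adipocyte markers. Cblb rose over wild type by 1.46 ± 0.29, 1.44 ± 0.32 and 1.31 ± 0.39 in gastrocnemius, quadriceps and tibialis (adjusted p = 0.0116, 0.0175 and 0.0377). The part that adipocyte RNA plays in healthy knock-in quadriceps library 4 was not tested.

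The other F-box receptors did not follow this pattern as a group. Fbxo30, which encodes MUSA1, a receptor known to be induced after denervation, lies at chr10:11281330-11298052. It stood at 50.7, 57.3 and 103 CPM in sick library 2 of gastrocnemius, quadriceps and tibialis, and at 15.1 to 26.3 CPM in the other sick libraries. Wild-type libraries held 14.4 to 22.5 CPM. The differences from wild type of 0.72, 0.73 and 0.66 did not pass (adjusted p = 0.134, 0.127 and 0.354).

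Fbxo21, which encodes the receptor SMART, another gene known to respond to denervation, lies at chr5:117976730-118010201. It lay above all wild-type libraries of the muscle in 7 of 9 sick libraries, at 14.8 to 35.1 CPM over the 9, where wild-type libraries held 11.6 to 17.4 CPM. Its differences from wild type were 0.65 ± 0.20 in gastrocnemius, 0.65 ± 0.36 in quadriceps and 0.32 ± 0.17 in tibialis, and did not pass (adjusted p = 0.0502, 0.21 and 0.179). The highest value of any library, 42.9 CPM, was in healthy knock-in quadriceps library 4.

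Fbxo40 lies at chr16:36963460-36990467. In quadriceps it stood at 282, 323 and 307 CPM in sick libraries, at 492, 407, 445 and 287 CPM in healthy knock-in libraries and at 472, 436, 498 and 444 CPM in wild-type libraries. All sick libraries lay below all wild-type libraries, and Fbxo40 fell to a log2 fold change of -0.58 ± 0.17 (adjusted p = 0.0346). This call was lost under 6 of 16 alternative fits, among them those without wild-type library 1, 2 or 3 or sick library 2 or 3. In gastrocnemius the sick libraries stood on both sides of the wild-type range, at 216, 284 and 470 CPM against 322 to 407 CPM, and in tibialis all lay below it, at 267 to 291 CPM against 319 to 369 CPM. Neither difference passed (-0.25 and -0.26; adjusted p = 0.521 and 0.322).

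Among the other ligases, Trim32 was lower in sick muscle. Trim32 is a RING ligase known to act on desmin and thin filaments, and its human counterpart is mutated in a limb-girdle muscular dystrophy; it lies at chr4:65604986-65616238. Sick libraries held 8.20 to 9.27 CPM in gastrocnemius, 6.59 to 10.1 CPM in quadriceps and 6.99 to 9.72 CPM in tibialis, against wild-type ranges of 9.51 to 14.0, 11.0 to 13.4 and 11.4 to 12.2 CPM. All 9 sick libraries lay below every wild-type library of their muscle. Trim32 fell in quadriceps by 0.57 ± 0.17 on the log2 scale (adjusted p = 0.0427), a call lost under 10 of 16 alternative fits, and differed by -0.33 ± 0.19 and -0.48 ± 0.17 in gastrocnemius and tibialis without passing (adjusted p = 0.233 and 0.0603).

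Nedd4, a HECT ligase known for acting on membrane proteins, lies at chr9:72662346-72749852. In tibialis it stood at 727, 564 and 600 CPM in sick libraries, at 453, 455, 528 and 358 CPM in healthy knock-in libraries and at 454, 459, 335 and 427 CPM in wild-type libraries. The sick libraries lay above the others, and Nedd4 rose by 0.60 ± 0.19 over wild type (adjusted p = 0.0435), a call lost under 12 of 16 alternative fits. In gastrocnemius and quadriceps the differences of 0.49 and 0.22 did not pass (adjusted p = 0.137 and 0.24).

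Traf6, a RING ligase that builds signalling ubiquitin chains downstream of immune receptors, lies at chr2:101678429-101701669. It held 17.0 to 29.5 CPM in sick libraries and 13.0 to 23.5 CPM in wild-type libraries. Its differences from wild type were 0.07 in gastrocnemius, 0.12 in quadriceps and 0.46 in tibialis, and none passed (adjusted p = 0.809, 0.598 and 0.0793).

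Other material moved with state in these libraries. In tibialis, 13 of the 13 kidney tubule markers tested were called lower in sick than in wild-type muscle. Of 10 markers of fibro-adipogenic progenitors, 5, 3 and 5 were called lower in sick than in wild-type gastrocnemius, quadriceps and tibialis, with medians of -1.24, -0.46 and -1.12, and 4, 3 and 6 were called lower in sick than in healthy knock-in muscle, with medians of -0.59, -0.34 and -1.41. In tibialis these progenitor markers summed to 667 to 1340 CPM in sick, to 1179 to 2706 CPM in healthy knock-in and to 1338 to 1764 CPM in wild-type libraries. Erythrocyte markers summed to 169 to 303 CPM in sick, 62.6 to 153 CPM in healthy knock-in and 78.9 to 162 CPM in wild-type gastrocnemius. In the same order they summed to 72.1 to 468, 51.1 to 135 and 51.0 to 99.6 CPM in quadriceps. In tibialis they summed to 28.7 to 203, 52.0 to 150 and 67.4 to 220 CPM. Macrophage markers summed to 350 to 507 CPM in sick, 265 to 385 CPM in healthy knock-in and 181 to 282 CPM in wild-type quadriceps. In the same order they summed to 114 to 335, 122 to 188 and 124 to 215 CPM in gastrocnemius. In tibialis they summed to 52.6 to 259, 122 to 404 and 86.5 to 222 CPM. Slow fibre markers summed to 711 to 7413 CPM in sick, 350 to 2715 CPM in healthy knock-in and 746 to 3778 CPM in wild-type gastrocnemius. In the same order they summed to 349 to 620, 358 to 878 and 352 to 466 CPM in quadriceps. For tibialis the sums were 484 to 996, 390 to 576 and 439 to 1273 CPM. Of 10 slow fibre markers, 2 were called higher in sick than in wild-type quadriceps, 1 was called lower in tibialis and 0 were called in gastrocnemius. Their median log2 fold changes were 1.24, 2.72 and -1.07 in gastrocnemius, quadriceps and tibialis. The mitochondrial share of counts was 5.22 to 11.1% in sick, 7.25 to 11.1% in healthy knock-in and 8.23 to 12.6% in wild-type gastrocnemius. It was 4.79 to 6.69% in sick, 6.94 to 12.4% in healthy knock-in and 7.04 to 10.8% in wild-type quadriceps, where the sick libraries all lay below the others. In tibialis it was 8.28 to 12.3% in sick, 11.0 to 14.6% in healthy knock-in and 13.4 to 15.5% in wild-type libraries, with each sick library under each wild-type one. The part of these shifts in the values of the 10 members was not tested. The comparison of sick with healthy knock-in tibialis contains no library with kidney markers above 2.56 CPM, and has the most progenitor markers called lower of these comparisons.

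Sick and healthy knock-in mice are animals of the same genotype. In gastrocnemius Fbxo32, Trim63, Fbxo31 and Cblb were called higher in sick than in healthy knock-in muscle, by 3.22 ± 0.83, 2.79 ± 0.80, 1.81 ± 0.25 and 1.68 ± 0.32 (adjusted p = 0.0295, 0.0422, 0.00262 and 0.00874), where 7.17% of genes were called higher, and no member was called lower, where 6.9% of genes were. In quadriceps the same 4 were called higher, by 2.98 ± 0.87, 2.98 ± 0.70, 1.73 ± 0.34 and 1.57 ± 0.34 (adjusted p = 0.0397, 0.0202, 0.0117 and 0.0156), as was Nedd4 by 0.41 ± 0.12 (adjusted p = 0.0443), where 10.1% of genes were. Trim32 was called lower there by -0.58 ± 0.18 (adjusted p = 0.05 after rounding, just under the threshold), where 7.51% of genes were. In tibialis Fbxo32 and Fbxo31 were called higher, by 2.63 ± 0.59 and 1.67 ± 0.38 (adjusted p = 0.0232 and 0.0238), where 5.03% of genes were, and no member lower, where 6.3% of genes were. Trim63, at 2.17 ± 0.75, and Cblb, at 1.26 ± 0.39, fell short of the threshold there (adjusted p = 0.0764 and 0.0548). The sick libraries are shared with the comparison to wild type, so the 2 sets of values are not independent.

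No member was called between healthy knock-in and wild-type muscle. Of the 10 members 0 were called in each muscle, where limma called 0.00706%, 0.0362% and 0.496% of genes in gastrocnemius, quadriceps and tibialis, and 1, 0 and 0 members had an unadjusted p below 0.05. That member was Traf6 in gastrocnemius, at 25.3, 21.4 and 25.1 CPM in healthy knock-in libraries and 13.0, 19.2, 18.8 and 19.7 CPM in wild-type libraries, a difference of 0.45 ± 0.18 (adjusted p = 0.64). In gastrocnemius the healthy knock-in libraries all lay above the wild-type ones for 3 members, Fbxo40, Traf6 and Nedd4, where 5.02% of genes did so. For Fbxo32 the differences were -0.19 ± 0.71, -0.33 ± 0.77 and 0.17 ± 0.51, and for Trim63 0.11 ± 0.69, -0.15 ± 0.61 and 0.43 ± 0.66, so the SEs allow changes of either sign.

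**Figure D4:**
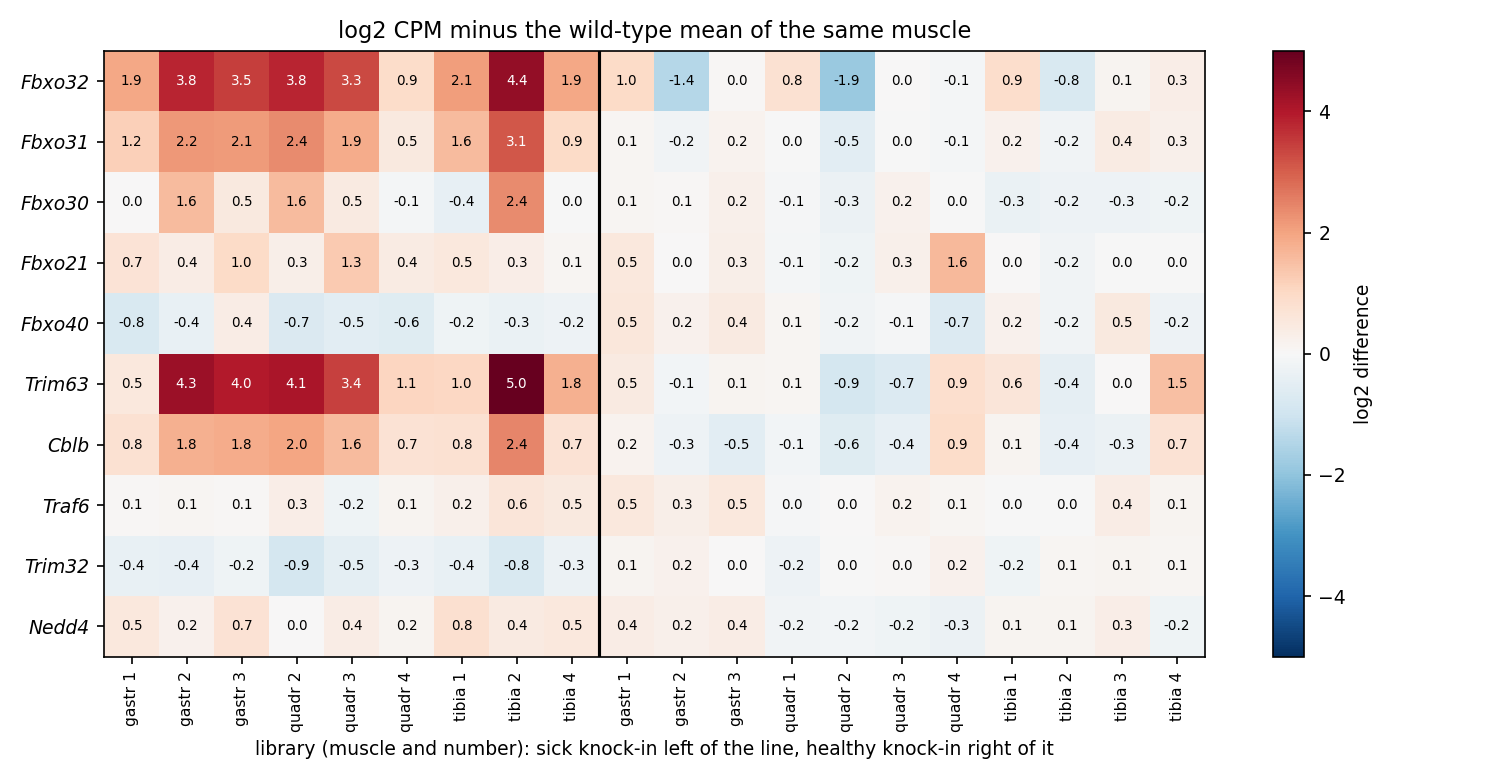
Log2 CPM of each member in each knock-in library minus the wild-type mean of the same muscle, sick libraries left of the line and healthy ones right of it. Trim63 differs by 0.5 in gastrocnemius sick library 1 and by 5.0 in tibialis sick library 2, and Fbxo32 by -1.9 in quadriceps healthy library 2.

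Sick libraries differed widely among themselves. The SD of log2 CPM within sick groups was 1.94 for Trim63, 1.33 for Fbxo32, 1.10 for Fbxo30, 0.90 for Fbxo31 and 0.76 for Cblb, against a median of 0.37 over 13562 genes, and 99.3% of genes had a lower SD than Trim63. Traf6, Nedd4 and Trim32 stayed below that median at 0.19, 0.21 and 0.24. Leaving out 1 sick library shows what rests on each. Calls over all genes moved as well. Against wild type, fits without 1 library called 561 to 2547, 83 to 4249 and 957 to 3043 genes in gastrocnemius, quadriceps and tibialis. Against wild type in gastrocnemius, Fbxo31 alone was called without sick library 2 or without sick library 3. Fbxo32 and Trim63 also lost their calls without wild-type library 1, 2 or 3 (adjusted p = 0.0509 to 0.0777). In quadriceps 0 members were called without sick library 2 (adjusted p of the lost calls 0.086 to 0.253) or without sick library 3 (0.0617 to 0.0903). Trim63, Fbxo40 and Trim32 lost their calls there without wild-type library 1, 2 or 3, Cblb without wild-type library 3, and Trim32 without healthy library 2 or 3. In tibialis Trim63, Cblb and Nedd4 lost their calls without sick library 2 or wild-type library 1, 2 or 3, while Fbxo32 and Fbxo31 were called without any single library. Cblb and Nedd4 were also lost there without wild-type library 4 or healthy library 1, Trim63 and Nedd4 without healthy library 2, and Nedd4 without sick library 1 or 4 or healthy library 3.

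Against healthy knock-in muscle, fits without 1 library called 728 to 2611, 287 to 4096 and 266 to 2299 genes in gastrocnemius, quadriceps and tibialis. Among the members, Fbxo31 and Cblb in gastrocnemius were called without any single library. Fbxo32 and Trim63 lost their calls there without sick library 2 or 3 or healthy library 2 or 3, and Trim63 also without healthy library 1 or wild-type library 2, 3 or 4. In quadriceps all 6 calls were lost without sick library 2 or without sick library 3. Fbxo32 was also lost there without healthy library 2, 3 or 4 or wild-type library 1 or 3, Trim63 without healthy library 2 or 3, and Cblb without healthy library 3. Nedd4 was lost without any healthy library or without wild-type library 1, 2 or 3, and Trim32 without healthy library 2, 3 or 4 or any wild-type library. In tibialis Fbxo32 lost its call without sick library 2 or healthy library 2, and Fbxo31 without sick library 1 or healthy library 2.

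The changes between sick and wild type were not shown to differ between muscles. In a fit of all 32 libraries the difference of changes was called for 0 of 10 members between quadriceps and gastrocnemius, tibialis and gastrocnemius, and tibialis and quadriceps, and 0 had an unadjusted p below 0.05, while limma called 0%, 0.204% and 0.243% of 15229 genes. For Fbxo32 the differences were -0.42, -0.26 and 0.17 and for Trim63 -0.11, -0.33 and -0.22 on the log2 scale, each with an SE of about 1.2. The fit took libraries of different muscles as independent. With 4 mice in each state, libraries of different muscles must share mice, and its SEs do not allow for that. The members' counts were also 0 without sick library 2 in every muscle, a fit added after seeing the data.

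Fbxo32 and Trim63 moved together, though not in a fixed ratio. Over the 32 libraries Pearson's r of their log2 CPM was 0.92, and it was 0.72 over the 23 libraries that are not sick. The libraries share muscles and, within a state, mice, so r is given as a description. The ratio of Trim63 to Fbxo32 CPM ran from 0.245 to 1.06 in sick libraries (median 0.874), from 0.453 to 1.59 in healthy knock-in libraries (median 0.683) and from 0.401 to 1.35 in wild-type libraries (median 0.703). The 2 lowest ratios of all 32 belonged to sick library 1, at 0.245 in gastrocnemius and 0.329 in tibialis, and the other sick libraries held 0.617 to 1.06.

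**Figure D5:**
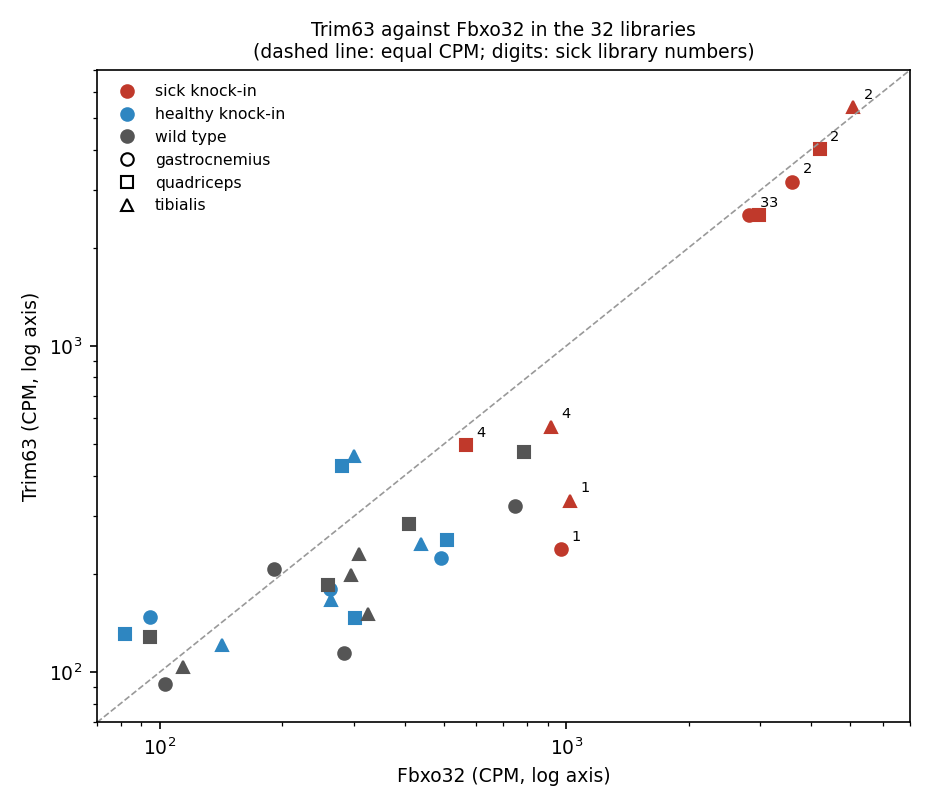
Trim63 CPM against Fbxo32 CPM in the 32 libraries on log axes, coloured by state, with a symbol per muscle and the number of each sick library. Sick libraries 2 and 3 lie near the line of equal CPM, at ratios of 0.846 to 1.06, and sick library 1 lies well below it, at 0.245 and 0.329.

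The genes whose log2 CPM over 32 libraries was most like that of Fbxo32, among 13562 tested in every muscle, were Nr1h2, Zrsr1, Gm15943, Eif3c and Tbc1d17, with r of 0.93 to 0.94. For Trim63 they were Elac2, Bsdc1, Mybbp1a, Prpf6 and Pes1, with r of 0.94 to 0.95. Gm15943 is annotated antisense to Fbxo32 and shares 186 exonic bases with it. Its count was at most 1.03% of that of Fbxo32 in any library, and reads of the 2 genes cannot be told apart where counting ignored strand, a setting the sources used here do not give. Among the other members, Fbxo31 had r of 0.92 with Fbxo32 and 0.93 with Trim63, Cblb had 0.83 and 0.90, and Fbxo30 had 0.74 and 0.80. Trim32 ran against both, at -0.72 and -0.70. Over the 23 libraries that are not sick, r with Fbxo32 and with Trim63 was 0.69 and 0.66 for Fbxo31, 0.19 and 0.42 for Cblb, 0.52 and 0.23 for Fbxo30, and 0.09 and 0.27 for Trim32.

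Genes around the ligases were examined as lists of known roles, each set against wild type. Over all genes tested, 8.22%, 10.5% and 8.44% were called higher in gastrocnemius, quadriceps and tibialis, and 6.52%, 7.49% and 9.61% lower. Of 26 transcription factors known to act on atrophy genes, 10 were called higher in each muscle and 1, 1 and 2 lower in gastrocnemius, quadriceps and tibialis. Their median log2 fold change was 0.66, 0.62 and 0.71. Cebpd, a factor induced by glucocorticoids and inflammation, rose by 3.72 ± 0.76, 4.12 ± 0.68 and 3.68 ± 0.85 in that order (adjusted p = 0.014, 0.0101 and 0.0168). Klf15, a glucocorticoid target, rose by 2.22 ± 0.35, 2.19 ± 0.49 and 2.19 ± 0.57 (adjusted p = 0.00541, 0.0178 and 0.0241). Foxo1 and Foxo3, the FoxO factors best known for inducing Fbxo32 and Trim63, rose by 1.85, 2.1 and 2.01 and by 1.64, 1.39 and 1.69 (adjusted p = 0.00579 to 0.0411).

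Of 26 genes of ubiquitin, E1 and E2 enzymes and the SCF core, 4, 4 and 3 were called higher and 1, 2 and 2 lower in the 3 muscles, with medians of 0.10, 0.09 and 0.11. Cul1, the scaffold on which F-box proteins act, rose by 0.91 ± 0.21, 0.80 ± 0.17 and 0.93 ± 0.21 (adjusted p = 0.021, 0.0141 and 0.0164). Ube2n, an E2 enzyme that works with Traf6, fell by 0.97 ± 0.15, 0.99 ± 0.14 and 0.68 ± 0.16 (adjusted p = 0.00445, 0.00593 and 0.0165). Ube2j1, an E2 enzyme of the endoplasmic reticulum, rose by 0.74, 0.98 and 0.75 (adjusted p = 0.0251, 0.0101 and 0.0247). The polyubiquitin gene Ubb rose by 0.79 ± 0.20 in gastrocnemius and 1.0 ± 0.23 in quadriceps (adjusted p = 0.0258 and 0.0172) and stood at 0.73 ± 0.24 in tibialis, where it did not pass (adjusted p = 0.0547).

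Of 28 other ubiquitin ligases of skeletal and heart muscle, 27 were tested, and 2, 1 and 4 were called higher and 0, 2 and 2 lower, with medians of 0.16, -0.02 and 0.23. Siah1a, a RING ligase, rose by 1.41 ± 0.24, 1.55 ± 0.29 and 1.48 ± 0.32 (adjusted p = 0.00602, 0.0112 and 0.0144). Fbxl22, an F-box gene of the sarcomere, fell by 2.06 ± 0.54 in quadriceps and 1.65 ± 0.44 in tibialis (adjusted p = 0.027 and 0.0263). In gastrocnemius Fbxl22 differed by -1.95 ± 0.65 without passing (adjusted p = 0.0681). Ubr2, a ligase of the N-end rule pathway, rose by 0.87 ± 0.22 in gastrocnemius and 0.89 ± 0.25 in tibialis (adjusted p = 0.0258 and 0.0313), and Ubr4, another of that family, rose by 0.90 ± 0.28 in tibialis (adjusted p = 0.0432). Ubr2 stood at 0.49 ± 0.18 in quadriceps without passing (adjusted p = 0.0709). Ubr4 stood at 0.59 and 0.43 in gastrocnemius and quadriceps without passing (adjusted p = 0.211 and 0.0838).

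Of 17 deubiquitinases, which take ubiquitin off, 1, 2 and 1 were called higher and 0 lower in each muscle, with medians of 0.33, 0.18 and 0.29. Of all genes, 8.22%, 10.5% and 8.44% were called higher. Otud1 rose by 1.90 ± 0.57 in gastrocnemius (adjusted p = 0.0479) and stood at 0.37 and -0.12 in quadriceps and tibialis (adjusted p = 0.737 and 0.893). Usp14, which acts at the proteasome, and Usp13 rose by 0.71 ± 0.21 and 0.69 ± 0.19 in quadriceps (adjusted p = 0.0361 and 0.03). In gastrocnemius and tibialis Usp14 stood at 0.83 and 0.50 without passing (adjusted p = 0.119 and 0.198). Usp13 stood at 0.56 and 0.44 there, also without passing (adjusted p = 0.284 and 0.274). Usp7 rose by 0.58 ± 0.14 in tibialis (adjusted p = 0.0177) and stood at 0.50 and 0.18 in gastrocnemius and quadriceps (adjusted p = 0.0827 and 0.238).

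Of 34 described substrates and partners of the members, 5, 6 and 2 were called higher and 0, 1 and 4 lower, with medians of 0.23, 0.07 and 0.15. Igf1r, the receptor gene of insulin-like growth factor, rose by 1.78 ± 0.22, 1.40 ± 0.30 and 1.81 ± 0.36 (adjusted p = 0.00219, 0.0157 and 0.0104) and Insr, the insulin receptor gene, by 1.0, 0.69 and 0.88 (adjusted p = 0.0126, 0.0272 and 0.0184). RNA of Ccnd1 fell by 1.73 ± 0.42 in quadriceps and 2.41 ± 0.54 in tibialis (adjusted p = 0.0216 and 0.0152). Its protein, cyclin D1, is a described target of Fbxo31, and protein levels were not measured here. In gastrocnemius Ccnd1 differed by -1.31 ± 0.56 without passing (adjusted p = 0.132). Sqstm1, an autophagy receptor gene, rose by 1.33 ± 0.41 in gastrocnemius and 1.29 ± 0.31 in quadriceps (adjusted p = 0.0484 and 0.0216). In tibialis Sqstm1 stood at 0.92 ± 0.39 without passing (adjusted p = 0.116).

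Of 17 genes of the denervation response, 16 were tested, and 3, 3 and 0 were called higher and 0, 1 and 0 lower, with medians of 1.02, 1.17 and 0.20. Sln, a regulator of the calcium pump, rose by 4.38 ± 0.65 in gastrocnemius and 5.37 ± 1.44 in quadriceps (adjusted p = 0.00462 and 0.0303). In tibialis Sln stood at 3.31 ± 1.07 and fell just short of the threshold (adjusted p = 0.0504). Ankrd1, a titin-binding stress protein gene, rose by 3.50 ± 0.36 in gastrocnemius and 3.05 ± 0.38 in quadriceps (adjusted p = 0.00113 and 0.00563) and differed by -1.25 ± 0.81 in tibialis without passing (adjusted p = 0.284). The 2 subunit genes of the acetylcholine receptor named here went opposite ways in quadriceps: Chrna1 rose by 0.96 ± 0.27 and Chrne fell by 0.90 ± 0.25 (adjusted p = 0.0328 and 0.0332). Neither passed in gastrocnemius or tibialis (adjusted p = 0.13 and 0.249 for Chrna1, 0.4 and 0.628 for Chrne). The share of all genes called higher or lower in each of these comparisons is given above with the members' counts.

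The authors' deposited table gives adjusted p-values of their own for these comparisons. Below 0.05 it lists 5, 6 and 8 of the 10 members for sick knock-in against wild type in gastrocnemius, quadriceps and tibialis, of which 4, 5 and 5 are also called here. Over all 25204 genes given a p-value it lists 3102, 2360 and 3824 for these comparisons. For sick against healthy knock-in, the authors' deposited table lists 4, 5 and 7 members, of which 4, 5 and 2 are also called here. Over all 25204 genes it lists 3073, 2581 and 3034 there. For healthy knock-in against wild type it lists 0 members in each muscle, and 18, 14 and 38 of all 25204 genes. In the authors' deposited table Fbxo32 in quadriceps, which did not pass here, has a log2 fold change of 2.73 and an adjusted p of 0.00824.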

How the data were processed

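Total RNA libraries of 3 muscles from sick knock-in, healthy knock-in and wild-type mice were counted per gene by the authors. The programs cutadapt, TopHat2 2.1.1, HTSeq 0.6.0, DESeq2 1.22.1 and the GRCm38 build are named, per the submitters' processing notes, without settings, strand option or annotation release. The deposited columns named raw hold whole-number counts, per the file headers: 6252 of 54838 listed genes carry a missing-value mark, and 48586 have counts. The authors' deposited table also gives log2 fold changes and adjusted p-values, which were used only where named.

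From the counts, limma 3.58.1 in R 4.3.3 (voom weights, robust empirical Bayes moderation) was fitted to all genes with values. Genes were kept by a minimum count of 10 and a summed count of 15, libraries were scaled by trimmed means (TMM, trimming 0.3 of ratios and 0.05 of levels), and 0.5 was added to counts before logs. Each muscle was fitted with its 3 states, the wild-type muscles together, and the differences of changes on all 32 libraries, which makes 15 comparisons. P-values were adjusted over all genes by Benjamini-Hochberg, with 0.05 as the threshold. CPM use TMM over all 32 libraries. The code was tested on simulated data. No 2 libraries of a group were alike within sampling noise: chi-square per gene ran from 12.0 to 197 over 42 pairs.

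All 10 members are named. For Fbxo32 and Trim63 the 5 genes of highest r are named, and of each list up to 4 genes called in most muscles, ties by mean absolute log2 fold change. Members and lists were chosen with earlier results of these data known. Alternatives were no filter, median-of-ratios scaling, other sets of libraries in the fit, a replicate block and leaving out each library.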

Additional observations from a re-analysis of the deposited data

Results flagged for a closer look

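Of 50 groups of 4 libraries tested for a member's value far from the others, 4 were flagged, and chance flags about 1 in 20. Traf6 stood at 13.0 CPM in wild-type gastrocnemius library 1, where the others held 18.8 to 19.7 CPM. Fbxo21 stood at 42.9 CPM in healthy knock-in quadriceps library 4, where the others held 11.9 to 16.7 CPM; that library also held 3305 CPM of adipocyte markers, and their part in the value was not tested. Fbxo32 stood at 114 CPM in wild-type tibialis library 2, where the others held 295 to 325 CPM. Trim32 stood at 10.2 CPM in healthy knock-in tibialis library 1, where the others held 12.6 to 12.9 CPM.

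Kidney tubule markers, which no comparison of the members uses, summed to 25.4 CPM in healthy knock-in gastrocnemius library 2, above the 0.841 to 1.65 CPM of wild-type gastrocnemius.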

How the results depend on the processing

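Over the alternatives, 2216 of 2400 members' values kept their direction and their side of the threshold or passed it in neither fit, 161 lost a call, 23 gained one and 0 called values changed sign; 189 values that passed in neither fit did change sign. With no filter on low counts, sick knock-in against wild type called 2, 2 and 2 members in gastrocnemius, quadriceps and tibialis, and sick against healthy knock-in 2, 1 and 0. With the 2 groups fitted alone, sick against healthy knock-in called 0 in quadriceps and 0 in tibialis, and sick against wild type 2 in tibialis. With all 32 libraries in 1 fit, sick against healthy knock-in called 5 in tibialis. With a replicate block, sick against wild type called 0 in quadriceps and 2 in tibialis, and sick against healthy knock-in 1 in each. Library numbers were taken as names only: deviations of same-numbered libraries correlated at -0.17 to 0.26 between states (29 pairs) and at 0.02 to 0.56 between muscles of a state (28 pairs), where 30 of 32 libraries correlated best with their own number, a hint from the data and not the design. Leaving out 1 library gave 1 to 5, 0 to 7 and 2 to 5 members for sick against wild type in gastrocnemius, quadriceps and tibialis, 2 to 4, 0 to 7 and 0 to 4 for sick against healthy knock-in, and 0 to 2 for wild-type tibialis against quadriceps. Over all genes, these fits called 561 to 2547, 83 to 4249 and 957 to 3043 for sick against wild type. For sick against healthy knock-in they called 728 to 2611, 287 to 4096 and 266 to 2299. For wild-type tibialis against quadriceps they called 296 to 1336. Counts over all genes are not given here for the other alternatives. The cause of these shifts was not tested, beyond the fewer libraries or more genes each fit holds. With 3 or 4 libraries a group, small changes of the uneven members were not detectable.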
